A study of Homo sapiens with 2 samples.

Results

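Ewing sarcoma is driven in most tumours by EWSR1-FLI1, a fusion of the activation domain of EWSR1 with the DNA-binding domain of the ETS factor FLI1. The 10 genes described here, NR0B1, NKX2-2, STEAP1, STEAP2, LIPI, PRKCB, BCL11B, GLI1, PPP1R1A and VRK1, are known from earlier work as genes that the fusion activates, and were taken as a list from that knowledge. All 10 were among the 33538 genes counted. They were described in single-cell transcriptomes of the established Ewing sarcoma cell lines CHLA9 and TC71, with 1 droplet library of each line. Neither line was treated or depleted of the fusion, so that every cell is expected to carry it and no group without it was compared. CHLA9 was grown in IMDM and TC71 in RPMI with a lower share of fetal bovine serum, and CHLA9 alone was sequenced on a second instrument, so that line, medium and sequencing cannot be told apart. Another line of the study was not analysed here.

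Transcripts were counted as unique molecular identifiers (UMIs), 1 per captured molecule. Cells with at least 5000 UMIs, at least 2000 detected genes and at most 15% mitochondrial UMIs were kept. These were 4524 of 5077 barcodes in CHLA9, with a median of 34656 UMIs, and 1729 of 8468 barcodes in TC71, with a median of 33370 UMIs. Of the barcodes, 16 were shared by both libraries, and 3 of these were kept in both. The kept cells carried CD99, the surface antigen used to diagnose Ewing sarcoma, at 1141 UMIs per 1000000 (CPM) in CHLA9 and 402 in TC71. Summed immune markers stood at 0.217 and 0.120 CPM, with CD3E and MS4A1 at 0 in both, and endothelial and erythroid markers at 0.503 CPM or less. Summed fibroblast markers were at 301 CPM in CHLA9 and 18.0 in TC71, and epithelial markers, nearly all of them KRT18, at 126 and 306 CPM. The part of these 2 lists in the results was not tested. With 1 library per line there was no replicate and no test was made, and all intervals are 95% intervals that cover counting error only.

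EWSR1-FLI1 is known to act through the sequence GGAA. At single sites it competes or cooperates with other ETS factors, and at long tandem repeats of GGAA, which normal ETS factors scarcely use, it recruits chromatin remodellers and turns the repeat into an enhancer. NR0B1 and LIPI are textbook examples of genes with such a repeat upstream. The 5000 bases upstream of each start site in the RefSeq promoter table (GRCh38.p14) were searched on either strand for at least 4 consecutive GGAA. The table held starts for 7 of the 10 genes, all but GLI1, PPP1R1A and VRK1. The 7 genes had 10 starts, and 3 of the 10, 1 each of NR0B1, STEAP2 and LIPI, had such a run, beside 740 of 35116 starts (2.11%) of all genes. The runs are shown with 40 bases on each side, 5′ to 3′ on the strand that carries GGAA, with the letters of the GGAA repeats in capitals, because they show how the repeats differ in length and in interruptions.

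NR0B1, chrX:30310718-30310899, minus strand: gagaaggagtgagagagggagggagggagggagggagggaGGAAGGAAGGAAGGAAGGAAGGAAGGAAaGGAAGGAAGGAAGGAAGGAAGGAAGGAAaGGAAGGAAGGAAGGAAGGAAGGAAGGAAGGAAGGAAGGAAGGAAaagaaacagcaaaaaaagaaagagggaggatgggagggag

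LIPI, chr21:14213252-14213375, minus strand: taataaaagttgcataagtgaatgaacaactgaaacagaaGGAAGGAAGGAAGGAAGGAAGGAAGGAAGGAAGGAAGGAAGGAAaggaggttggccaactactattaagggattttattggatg

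STEAP2, chr7:90208313-90208521, plus strand: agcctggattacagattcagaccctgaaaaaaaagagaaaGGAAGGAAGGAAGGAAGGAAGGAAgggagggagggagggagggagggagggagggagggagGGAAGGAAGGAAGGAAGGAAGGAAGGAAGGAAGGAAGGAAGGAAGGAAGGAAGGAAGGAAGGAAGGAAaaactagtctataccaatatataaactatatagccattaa

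The NR0B1 repeat lay in 3 runs over 102 bases, with 25 GGAA in all and 11 in the longest run, 1368 bases upstream of the start. In LIPI a single run of 11 GGAA over 44 bases lay 2337 bases upstream. In STEAP2 there were 2 runs over 129 bases with 23 GGAA, the longest of 17, and the repeat lay 3259 bases upstream of the start at 90211740. This start is inside the annotated STEAP2 gene (chr7:90167590-90238137), so that the repeat is intronic for its longer transcripts, and the antisense gene STEAP2-AS1 also runs across it. Closer to the start, of all promoters of 300 bases, from 250 before to 50 after the start, 95.5% held a GGAA or TTCC, the same motif on the other strand, with a median of 3. The NR0B1 promoter held 5, the STEAP1 promoter 4 and those of PRKCB and BCL11B 0, and in none of the 10 promoters listed for the 7 genes did GGAAGGAA or TTCCTTCC appear, a pair found in 3.67% of all promoters. A match of letters is no binding site, and the repeat lengths are those of the reference genome, not of these lines.

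The summed level of the 10 genes was nearly the same in the 2 lines, 1137 CPM in CHLA9 and 1161 CPM in TC71, but the genes that made it up differed. NR0B1, NKX2-2, STEAP1 and STEAP2 were at least 2-fold higher in TC71, BCL11B was at least 2-fold higher in CHLA9, and LIPI, PRKCB, PPP1R1A and VRK1 were less than 2-fold apart. GLI1 was under the minimum of 5 CPM in both lines and was not called. Thus 5 of the 9 genes called on were apart by 2-fold, where 28.0% of the 10774 genes that reached 5 CPM in either line were. In TC71 4 of the 9 were higher, where 10.5% of all genes were, and in CHLA9 1 of the 9 was, where 17.5% of all genes were. The median log2 difference, TC71 over CHLA9, was 0.44 for the 9 genes and -0.21 for all genes, so that most genes called were higher in CHLA9. Scaling by the median ratio of genes in place of the total moved the all-gene median to -0.05 and the share of 2-fold calls that were higher in TC71 from 37.4% to 48.3%, and left the 5 calls among the 9 genes in the same directions.

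**Figure D1:**
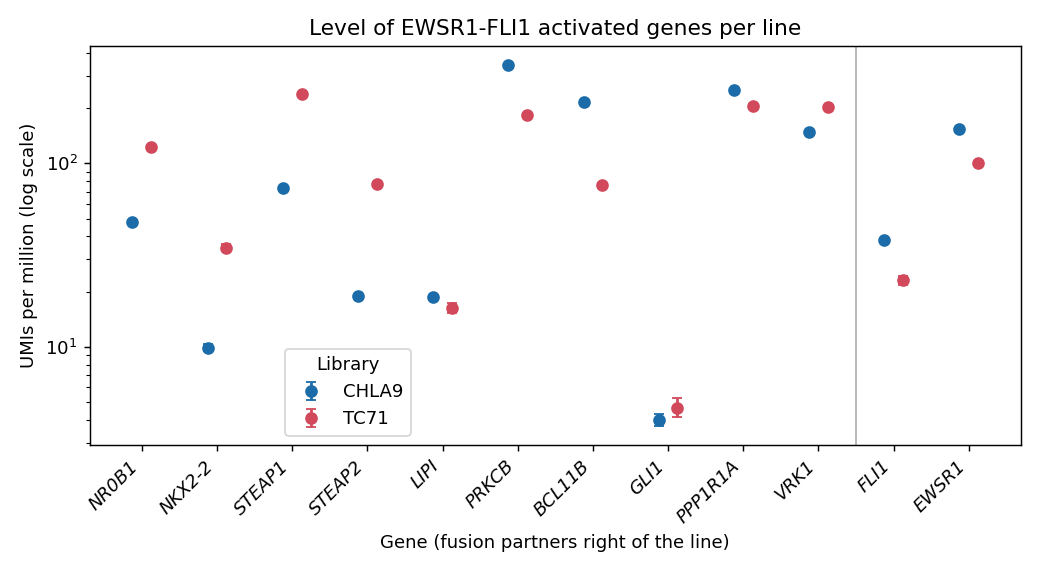
Level of each gene in the kept cells of CHLA9 (blue) and TC71 (red), as UMIs per 1000000 on a log axis, with exact 95% Poisson intervals, mostly hidden by the points; FLI1 and EWSR1 stand to the right of the grey line. NR0B1, NKX2-2, STEAP1 and STEAP2 are higher in TC71 and PRKCB and BCL11B in CHLA9, while GLI1 is lowest in both.

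The 4 transcription factors and cofactors of the list spanned the widest range. NR0B1 (chrX:30304206-30309390), an orphan nuclear receptor that represses transcription and is needed for the transformed growth of Ewing cells, was at 48.1 CPM (47.1 to 49.1) in CHLA9 and 122 CPM (119 to 125) in TC71, 2.54-fold higher. NKX2-2 (chr20:21511017-21514064), a homeodomain repressor of the ventral neural tube and a diagnostic marker of Ewing sarcoma, was at 9.89 CPM (9.43 to 10.4) in CHLA9 and 34.6 CPM (33.1 to 36.2) in TC71, 3.50-fold higher. BCL11B (chr14:99169287-99272197), a zinc finger repressor known from T cells and neurons, went the other way. It was at 217 CPM (215 to 220) in CHLA9 and 75.9 CPM (73.7 to 78.2) in TC71, 2.86-fold higher in CHLA9. GLI1 (chr12:57459785-57472268), the zinc finger effector of Hedgehog signalling, had 694 UMIs in all CHLA9 cells and 272 in all TC71 cells. Its levels, 3.97 CPM (3.68 to 4.27) and 4.66 CPM (4.12 to 5.25), were below those of its relative GLI2 in both lines, 23.6 CPM in CHLA9 and 8.24 CPM in TC71. GLI3, at 10.7 and 3.75 CPM, was above GLI1 in CHLA9 and below it in TC71. The closest relative of BCL11B, BCL11A, had 0 UMIs in CHLA9 and 3 in TC71.

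Both membrane proteins were higher in TC71. STEAP1 (chr7:90154456-90164829), a multi-pass cell surface protein studied as a target of immunotherapy, was at 73.2 CPM (72.0 to 74.5) in CHLA9 and 239 CPM (235 to 243) in TC71, 3.26-fold higher. STEAP2, its neighbour and a metalloreductase that reduces iron and copper, was at 18.9 CPM (18.2 to 19.5) and 76.8 CPM (74.6 to 79.1). At 4.07-fold this was the widest difference among the 10 genes. The end of the annotated STEAP1 gene and the outermost annotated start of STEAP2 are 2760 bases apart on the same strand. The STEAP2 starts searched for repeats, at 90211740 and 90213820, lie further inside STEAP2. Of their relatives, STEAP3 was at 29.5 CPM in CHLA9 and 9.75 CPM in TC71, STEAP4 had too few UMIs to compare, 2 and 5, and STEAP1B, a near copy of STEAP1, was at 6.15 and 0.463 CPM. What reads that fit both STEAP1 and STEAP1B do to these levels was not tested.

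The enzymes and the phosphatase inhibitor differed less. PRKCB (chr16:23835983-24220611), protein kinase C beta, was the most abundant of the 10 genes in CHLA9, where it ranked 400th among all genes at 345 CPM (343 to 348). In TC71 it was at 183 CPM (180 to 187), so that it was 1.89-fold higher in CHLA9, while its relative PRKCA was at 35.2 and 38.0 CPM. PPP1R1A (chr12:54575387-54588659), an inhibitor of protein phosphatase 1, was at 252 CPM (250 to 255) in CHLA9 and 206 CPM (202 to 210) in TC71. VRK1 (chr14:96797304-96954846), a nuclear kinase of chromatin and of mitotic entry, was at 149 CPM (147 to 151) and 202 CPM (199 to 206). LIPI (chr21:14108813-14210955), a phospholipase that releases lysophosphatidic acid and is otherwise a testis gene, was the closest between the lines, at 18.6 CPM (17.9 to 19.2) and 16.3 CPM (15.3 to 17.4).

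Since the library takes 1 tag from the 3′ end of each molecule, the levels need no division by gene length and may be ordered between genes. In CHLA9 the order from the highest was PRKCB, PPP1R1A, BCL11B, VRK1, STEAP1, NR0B1, STEAP2, LIPI, NKX2-2 and GLI1, and the intervals of neighbours overlapped only for STEAP2 and LIPI. In TC71 it was STEAP1, PPP1R1A, VRK1, PRKCB, NR0B1, STEAP2, BCL11B, NKX2-2, LIPI and GLI1, and the intervals overlapped for PPP1R1A with VRK1 and for STEAP2 with BCL11B. STEAP1 thus moved from the fifth place in CHLA9 to the first in TC71. The genes with an upstream repeat held no common place: NR0B1 and STEAP2 were higher in TC71, and LIPI was slightly higher in CHLA9.

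The level of FLI1 itself did not follow the genes that were higher in TC71. FLI1 (chr11:128686535-128813267) was at 38.2 CPM (37.3 to 39.1) in CHLA9 and 23 CPM (21.8 to 24.3) in TC71, 1.66-fold higher in CHLA9. EWSR1 was at 153 and 101 CPM, 1.52-fold higher in CHLA9. The fusion and intact FLI1 share the 3′ end that is sequenced, and a fusion transcript is counted as FLI1, so that the EWSR1 level is that of the intact gene and the FLI1 level may hold both. ERG, the ETS gene that replaces FLI1 in some tumours, had 0 UMIs in both lines, for which 3 UMIs per library is the one-sided 95% limit.

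Other genes known to be activated by EWSR1-FLI1 were taken from a list of 26 made from general knowledge. Of the 24 that reached 5 CPM in either line, 2 were at least 2-fold higher in TC71 and 6 in CHLA9, and 16 were less than 2-fold apart, with a median log2 difference of -0.58 between TC71 and CHLA9. CAV1, the main protein of caveolae, was at 558 CPM in CHLA9 and 1443 CPM in TC71, 2.58-fold higher. ADGRG2, an adhesion G protein-coupled receptor, was at 9.72 and 20.8 CPM, 2.14-fold higher in TC71. On the other side stood CCK, the gene of the peptide hormone cholecystokinin, with 1671 CPM in CHLA9 and 0.840 CPM, or 49 UMIs, in TC71. EZH2, the methyltransferase of Polycomb repressive complexes, was at 442 CPM in CHLA9 and 95.6 CPM in TC71, 4.63-fold higher in CHLA9. CALCB, a calcitonin-related peptide, was 3.91-fold higher in CHLA9, at 154 and 39.4 CPM, and PLD2, a phospholipase, 2.57-fold higher, at 5.16 and 2.0 CPM. Over all genes 10.5% were 2-fold higher in TC71 and 17.5% in CHLA9, so that the counts for this list lay near those of genes at large.

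To compare cells at the same depth, each cell was thinned at random to 10000 UMIs, which left out 14 CHLA9 cells and 59 TC71 cells with fewer and kept 4510 and 1670. The share of cells with at least 1 UMI then ran from 3.86% for GLI1 to 94.5% for PRKCB in CHLA9, and from 4.61% for GLI1 to 90.4% for STEAP1 in TC71. NR0B1 was found in 28.3% of CHLA9 cells (exact binomial interval 27.0 to 29.7) and 62.7% of TC71 cells (60.3 to 65.0). NKX2-2 was found in 8.56% and 28.4%, STEAP2 in 17.1% and 53.7%, and STEAP1 in 49.5% and 90.4%. BCL11B was found in 79.7% of CHLA9 cells (78.5 to 80.8) and 48.6% of TC71 cells (46.1 to 51.0). LIPI was found in 15.6% and 14.2%, PPP1R1A in 88.8% and 84.1%, VRK1 in 75.2% and 86.0%, and PRKCB in 78.3% of TC71 cells. The shares and their gaps rest on depth. At 20000 UMIs STEAP1 was found in 70.9% and 98.4% of cells, STEAP2 in 29.2% and 74.1%, and NR0B1 in 40.5% and 81.5%. Unthinned, STEAP1 was found in 85.9% and 98.4% of cells, NR0B1 in 50.4% and 87.1%, NKX2-2 in 25.0% and 61.1%, LIPI in 43.3% and 37.3%, and GLI1 in 13.7% and 14.1%. Each library held a single line, so no cell type that lacks these genes could give the share due to free RNA, which was not tested.

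A cell at 10000 UMIs held a median of 5 of the 10 genes in CHLA9, with 1 to 9 found, and 6 in TC71, with 2 to 9 found. No cell held all 10 and none held 0. The median of their summed UMIs was 11 in both lines.

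**Figure D2:**
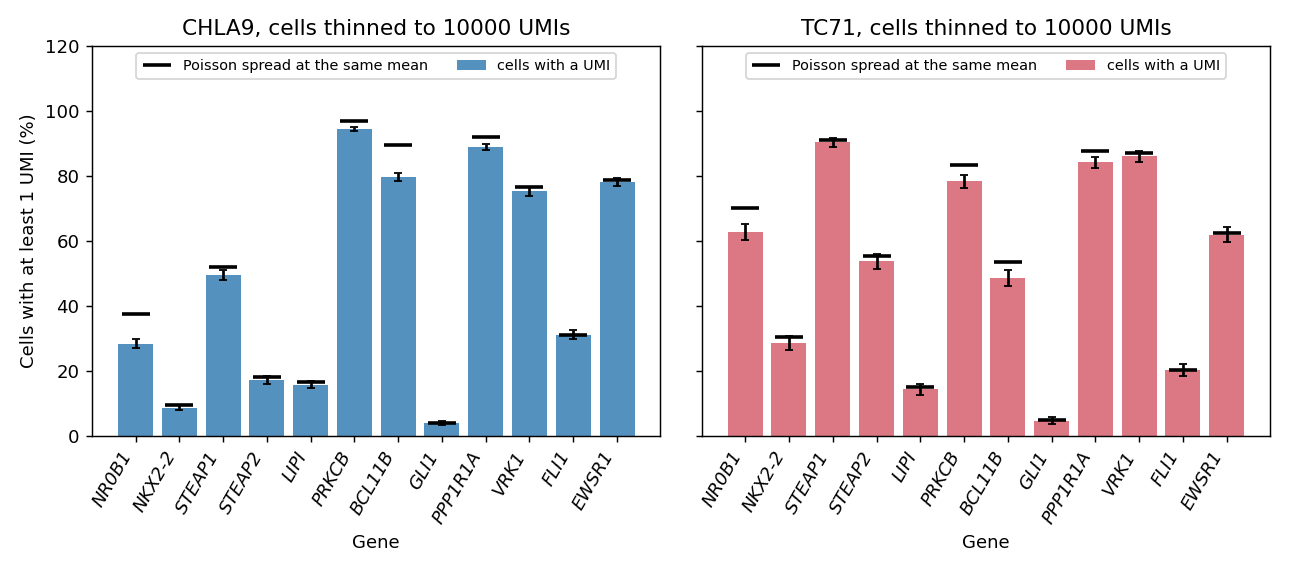
Share of cells with at least 1 UMI after thinning to 10000 UMIs (bars, with exact 95% binomial intervals) and the share that a Poisson spread with the same mean would give (black dashes), in CHLA9 (left, 4510 cells) and TC71 (right, 1670 cells). In CHLA9 the bars of NR0B1 and BCL11B end furthest below their dashes, at 28.3% under 37.6% and 79.7% under 89.5%, in TC71 that of NR0B1 does, at 62.7% under 70.0%, and those of FLI1 and GLI1 meet them.

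The genes differed in how far their UMIs spread beyond counting error. If every cell of a line held the same level, UMIs at equal depth would follow a Poisson distribution, with a variance equal to the mean. NR0B1 was found in fewer cells than that, 28.3% where 37.6% would hold a UMI in CHLA9 and 62.7% where 70.0% would in TC71. Its variance over mean was 1.83 in CHLA9 and 1.42 in TC71. BCL11B was alike, found in 79.7% where 89.5% would hold a UMI in CHLA9, with a variance over mean of 1.88, and 1.34 in TC71. Over all genes found in at least 5% of cells, 9933 in CHLA9 and 9741 in TC71, the median variance over mean was 1.04 in each line. NR0B1 and BCL11B were above 98.5% and 98.6% of these genes in CHLA9, and above 97.0% and 96.3% in TC71. PRKCB (1.42 and 1.28) and PPP1R1A (1.29 and 1.27) came next, and NKX2-2, STEAP1, STEAP2, LIPI and VRK1 lay between 1.11 and 1.24. GLI1, at 0.984 and 1.05, was too rare to show more than counting error. For FLI1 the ratio was 0.972 in CHLA9 and 1.02 in TC71, and it was found in 31.1% of CHLA9 cells where a Poisson spread gives 30.8%. For the same relative spread of level between cells, variance over mean rises with the mean UMIs of a gene. In CHLA9 these means were 0.0998 for NKX2-2, 0.471 for NR0B1 and 3.44 for PRKCB. The ratio thus gives no order of how evenly the genes were expressed, and the ranks among all genes were not matched for level.

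At full depth the excess of CHLA9 cells without NR0B1 was larger, though whether the cells form separate groups was not tested. No NR0B1 UMI was found in 49.6% of CHLA9 cells, where 18.9% would be empty if all cells held the same level at their own depth. The tenth percentile of the level per cell was 0, the median 12.4 CPM and the ninetieth percentile 155 CPM. With 49.6% of cells empty, this median lies just above 0 UMIs and is no typical level. Percentiles of single cells also hold counting error. In TC71 12.9% of cells were empty, where 4.403% would be, with a median of 104 CPM and a ninetieth percentile of 253 CPM. A CHLA9 cell at the ninetieth percentile thus held more NR0B1 than the median TC71 cell. For FLI1, 25.9% of CHLA9 cells were empty where 26.0% would be, and 49.97% of TC71 cells where 47.7% would be.

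**Figure D3:**
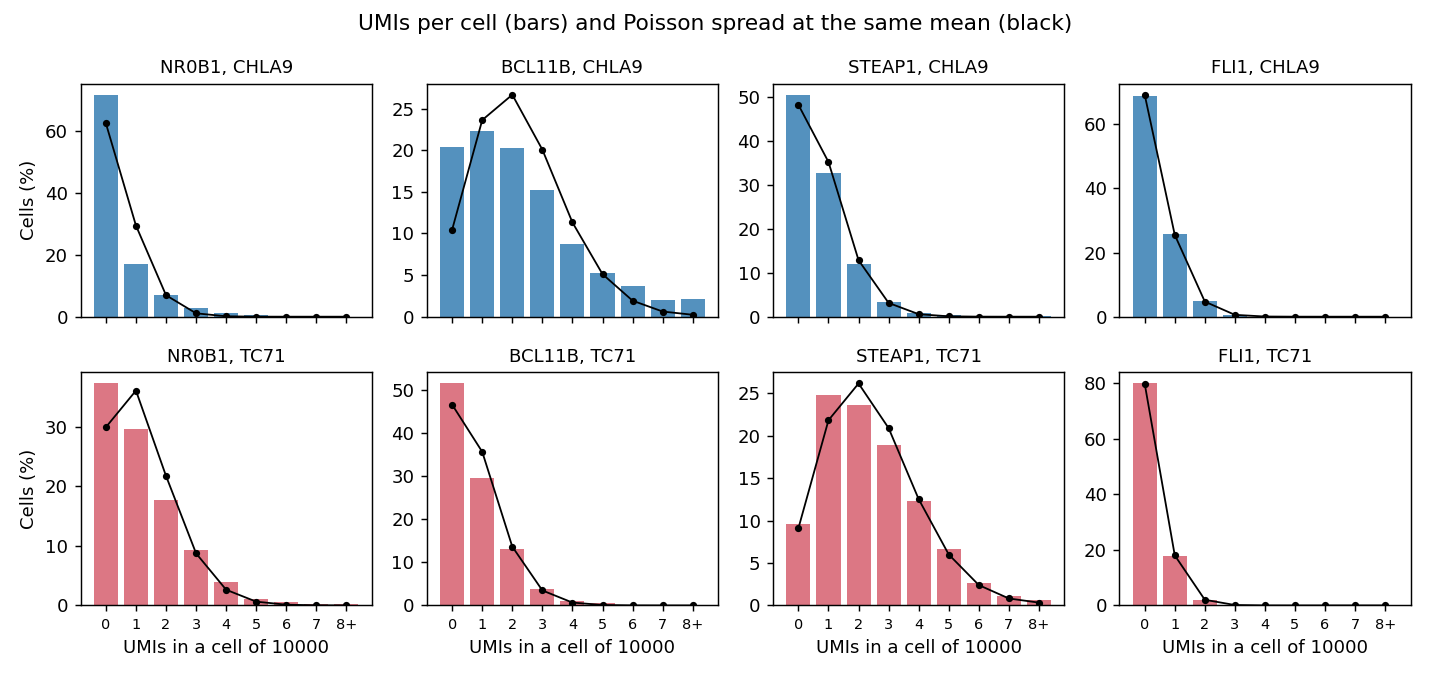
Share of cells by the number of UMIs found after thinning to 10000 UMIs, for NR0B1, BCL11B, STEAP1 and FLI1 in CHLA9 (blue, top) and TC71 (red, bottom), with the Poisson spread of the same mean in black. NR0B1 has more empty cells than the Poisson spread in both lines (71.7% against 62.4% in CHLA9), while the FLI1 bars follow it.

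How far a cell's count of a gene could be measured again was taken from 2 separate draws of 10000 UMIs from the same cell, in the 4415 CHLA9 and 1553 TC71 cells with at least 20000 UMIs. Across cells, Spearman's rho of NR0B1 between the draws was 0.443 in CHLA9 and 0.316 in TC71. For BCL11B it was 0.446 and 0.174, for PRKCB 0.285 and 0.170, and for PPP1R1A 0.226 and 0.132. NKX2-2 reached 0.166 and 0.0487, STEAP1 0.139 and 0.159, and STEAP2, LIPI and VRK1 lay between 0.0789 and 0.101. The median over all genes was 0.0337 in CHLA9 and 0.0346 in TC71, so that all 9 of these genes were above it in both lines. Genes at large were not matched for level here either. For FLI1 the rho was -0.000984 and 0.0218. At this depth, then, the counts of FLI1 ranked the cells in one draw with nearly no bearing on their rank in the other, which limits any rho with FLI1 given here.

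The 10 genes were then correlated with each other across cells at equal depth. GLI1, under 5% of cells in both lines, was left out, which leaves 36 pairs of 9 genes. In CHLA9 the median rho was 0.0101, from -0.0594 to 0.0618, where all pairs of genes had a median of 0.000502. In TC71 it was 0.00586, from -0.0467 to 0.0928, with 0.00119 for all pairs. A rho of at least 0.05 was reached by 4 of the 36 pairs in CHLA9, where 0.599% of all gene pairs reached it, and by 4 of 36 in TC71, where 3.82% did. These were PRKCB with PPP1R1A (0.0618), STEAP1 with STEAP2 (0.0542), NKX2-2 with PRKCB (0.0537) and STEAP2 with BCL11B (0.0503) in CHLA9. In TC71 they were STEAP1 with STEAP2 (0.0928), BCL11B with VRK1 (0.0660), PRKCB with BCL11B (0.0625) and NKX2-2 with PPP1R1A (0.0610). All of these points share a library. The pairs of all genes were not matched for level with the 36 pairs, so no excess over them is read. At such sparse counts another random draw of UMIs moved the rho values of the named pairs, and changed the sign of some but not of others.

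Of these pairs only STEAP1 with STEAP2 passed 0.05 in both lines. Both were found together in 9.36% of CHLA9 cells, where 8.46% would hold both if they were independent, and in 49.3% of TC71 cells, where 48.5% would. Over the 6 random draws made, their rho ran from 0.0542 to 0.0997 in CHLA9 and from 0.0215 to 0.0928 in TC71, and at 20000 UMIs per cell it was 0.155 and 0.104. The rho of STEAP1 with STEAP2 was thus positive in every draw but weak in TC71. With outlying cells left out it was 0.0740 in CHLA9 and 0.0118 in TC71. Without the cells of highest doublet score it was 0.102 and 0.0218. PRKCB with PPP1R1A in CHLA9 ran from 0.0618 to 0.112 over the 6 draws, and was 0.121 at 20000 UMIs. PRKCB with BCL11B in TC71 ran from 0.0394 to 0.0998, and was 0.0829 at 20000 UMIs. There it was 0.0233 with outlying cells left out, and 0.137 within G1, 0.0184 within S and 0.0976 within G2M cells. In the other line these pairs were at 0.00330 and 0.0369. In CHLA9, NKX2-2 with PRKCB fell to 0.0181 and STEAP2 with BCL11B to 0.0178 in another draw. NKX2-2 with PPP1R1A in TC71 fell to -0.0306 in another draw. For BCL11B with VRK1 in CHLA9 the rho ran from -0.0594 to -0.0335 over the 6 draws, and was 0.00149 within G1, -0.0215 within S and -0.0677 within G2M cells. In TC71 it ran from -0.0153 to 0.0660 over the draws, with 0.0140 the next lowest, so that a draw could change its sign. There it was 0.0597 at 20000 UMIs, and 0.165 within G1, 0.00693 within S and 0.0985 within G2M cells. No pair came near the rho of NR0B1 or BCL11B with itself. The summed UMIs of the 10 genes had a variance over mean of 1.55 in CHLA9 and 1.32 in TC71, where 1.43 and 1.23 would follow from the genes' own variances without any correlation.

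**Figure D4:**
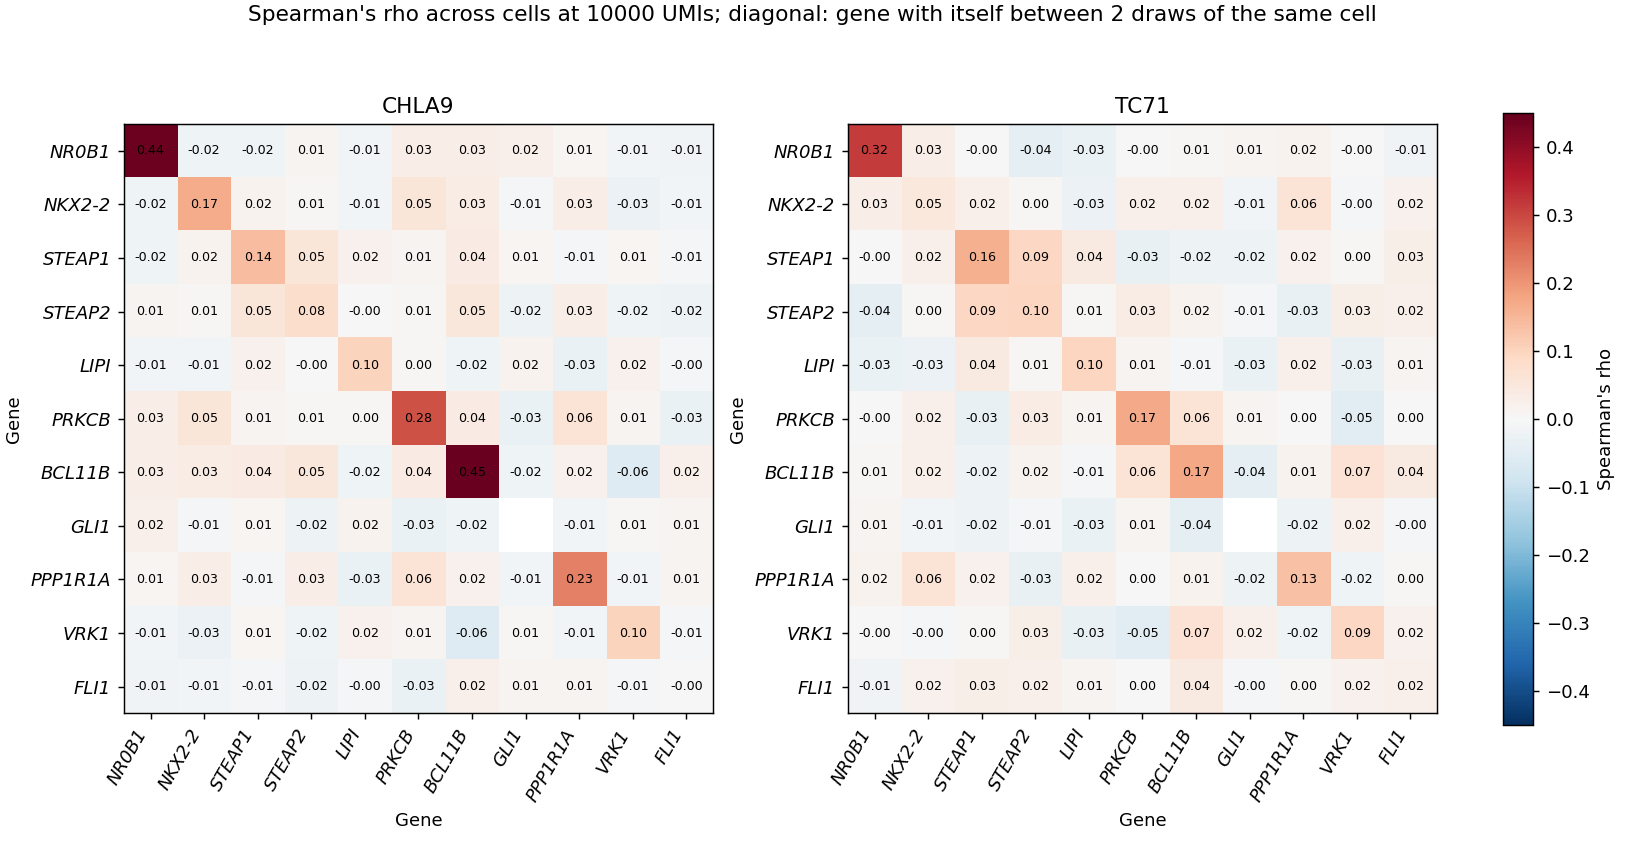
Spearman's rho across cells thinned to 10000 UMIs, for each pair of the 10 genes and FLI1, in CHLA9 (left, 4510 cells) and TC71 (right, 1670 cells); the diagonal is the rho of a gene with itself between 2 separate draws from the same cell, and GLI1 has none. The diagonal of NR0B1 and BCL11B in CHLA9, at 0.44 and 0.45, stands out from the pairs, all of which are at 0.0928 or less. That of STEAP2 is only 0.0789 in CHLA9 and 0.0965 in TC71.

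None of the genes had more than a weak rho with FLI1. In CHLA9 the rho of the 9 genes with FLI1 ran from -0.0310 for PRKCB to 0.0239 for BCL11B, with a median of -0.0104, and 0 of 9 reached 0.05, where 0.0403% of all genes did. In TC71 it ran from -0.0144 for NR0B1 to 0.0414 for BCL11B, with a median of 0.0197, and 0 of 9 reached 0.05, where 3.40% of all genes did. The median over all genes was 0.00157 and 0.00286. The summed UMIs of the 10 genes averaged 11.3 in the 1402 CHLA9 cells with a FLI1 UMI and 11.4 in the 3108 without, a ratio of 0.989 (0.971 to 1.01). In TC71 they averaged 11.9 in 336 cells and 11.6 in 1334, a ratio of 1.02 (0.987 to 1.06). Gene by gene, the interval of the ratio left out 1 only for STEAP2 (0.859, 0.740 to 0.996) and PRKCB (0.960, 0.927 to 0.993) in CHLA9, both lower in cells with a FLI1 UMI. Their upper limits lay close to 1, and these intervals cover counting error only. With a variance over mean of 1.11 for STEAP2 and 1.42 for PRKCB in CHLA9, they are too narrow for the spread between cells. No difference is therefore read from them. Of the other activated genes, 24 in CHLA9 and 20 in TC71 could be set against FLI1, with medians of -0.00651 and 0.00872 and 0 at 0.05 or above. FLI1 and EWSR1 gave 0.00184 in CHLA9 and 0.0154 in TC71. The median rho of the 9 genes with FLI1 changed sign among the alternatives, from -0.0126 to 0.00597 in CHLA9 and from -0.0222 to 0.0194 in TC71, and a shallow count of FLI1 mRNA is no measure of the fusion protein.

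Which genes came closest to each member was read from the mean rho of both lines over 8983 genes. The 2 highest of so many were picked by the same values that are printed. How high unrelated genes would reach was not tested, and no shared role is read from the neighbours. The closest to LIPI was RBM11, an RNA-binding protein gene that lies 5174 bases from it on chromosome 21 beyond the GGAA repeat, with 0.0727 in CHLA9 and 0.0918 in TC71. The repeat printed above lies between the starts of these 2 genes. The closest to STEAP1 was STEAP2, followed by the translation initiation factor EIF1, and STEAP2 was closest to AKAP9 (0.0397 and 0.111), a scaffold of the Golgi and centrosome on the same chromosome. For NR0B1 they were NACA (0.0483 and 0.0875) and RPS24 (0.0216 and 0.112), both of the translation machinery. NKX2-2 was closest to CYTL1 (0.0577 and 0.0616) and the neuronal adhesion gene CNTNAP2 (0.0660 and 0.0520).

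BCL11B and VRK1 had the closest neighbours. BCL11B was nearest to DDX5, an RNA helicase, with 0.201 in CHLA9 and 0.0863 in TC71, and to SOX11, a neural transcription factor, with 0.189 and 0.0875. VRK1 was nearest to the condensin subunit SMC4 (0.135 and 0.0860) and to CALM2, a calmodulin gene (0.111 and 0.105). The kinase gene JAK1 was among the 2 nearest to PRKCB (0.0583 and 0.114), and PPP1R1A was nearest to RPLP0 (0.0838 and 0.0520) and HAP1 (0.101 and 0.0336). LIPI came after RBM11 to CDCA2, a regulator of mitotic phosphatase (0.0609 and 0.0805). In CHLA9 alone, and chosen after its values were seen, the gene at the far end from BCL11B was the S phase histone HIST1H4C, with -0.370. The gene closest to NR0B1 (0.0932) and to STEAP2 (0.0651) in CHLA9 was CCK, likewise chosen after its values were seen. The order of neighbours this close in rho can change with the draw of UMIs.

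Cell cycle phases were scored in each line with the usual S and G2M gene lists, of 97 genes, none of them among the 10. In CHLA9 22.4% of cells were placed in G1, 38.5% in S and 39.0% in G2M, and in TC71 13.1%, 48.2% and 38.7%. The G1 group of TC71 was not stable. It held 226 cells, but 614 when phases were scored on all genes, where CHLA9 went from 1015 to 1114. The share of TC71 cells in G1 thus rests on this choice. Median UMIs were 29196 in G1, 35064 in S and 40896 in G2M of CHLA9 and 29048, 33035 and 37014 in TC71, so levels are given as CPM. Of the 9 genes with at least 5 CPM in a phase of CHLA9, 5 were at least 1.2-fold higher in G1 than in G2M, where 11.1% of all genes were, and 2 were at least 1.2-fold higher in G2M, where 18.7% were. In TC71 1 of 10 genes was higher in G1, where 6.80% of all genes were, and 3 in G2M, where 31.6% were. The G1 call in TC71, PPP1R1A, was lost with phases scored on all genes (log2 ratio 0.249), and the G2M call of BCL11B with the mean of per-cell CPM (-0.223). The median log2 ratio of G1 over G2M was 0.27 for the 9 genes and -0.02 for all genes in CHLA9, and -0.10 for the 10 genes and -0.12 for all genes in TC71.

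LIPI was at least 1.2-fold higher in G2M in both lines, and VRK1 in CHLA9. VRK1 was at 110 CPM in G1, 148 in S and 165 in G2M of CHLA9, and at 192, 194 and 214 CPM in TC71, 1.12-fold higher in G2M than in G1. LIPI was at 14.98, 16.3 and 22.0 CPM in CHLA9 and at 15.5, 13.3 and 19.9 CPM in TC71. PPP1R1A was at least 1.2-fold higher in G1 in both lines, and NR0B1 in CHLA9. PPP1R1A was at 274, 270 and 228 CPM in G1, S and G2M of CHLA9 and at 234, 215 and 188 CPM in TC71. NR0B1 was at 59.4, 50.2 and 41.5 CPM in CHLA9, and at 126, 129 and 113 CPM in TC71, where G1 was 1.11-fold above G2M. The interval of this TC71 log2 ratio held 0 with another seed of the phase scores (-0.00407 to 0.236) and after outlying cells were left out (-0.0271 to 0.217).

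BCL11B and STEAP2 were higher in G1 in CHLA9 and in G2M in TC71, by at least 1.2-fold in each. BCL11B was at 296 CPM in G1, 178 in S and 218 in G2M of CHLA9, lowest in S, and at 65.3, 74.6 and 80.2 CPM in TC71. STEAP2 was at 22.8, 19.0 and 17.1 CPM in CHLA9 and at 63.9, 69.8 and 87.9 CPM in TC71. STEAP1 was at 76.4, 73.9 and 71.3 CPM in CHLA9 and at 243, 214 and 266 CPM in TC71, so that G1 and G2M were under 1.2-fold apart in both lines. With 1 library per line, no test of the contrast between lines was possible. PRKCB was at 374, 353 and 327 CPM in CHLA9, and its TC71 levels of 174, 187 and 181 CPM differed between G1 and G2M by less than counting error. NKX2-2 was at 10.2, 11.6 and 8.29 CPM in CHLA9 and at 35.5, 35.5 and 33.4 CPM in TC71, where the interval of the ratio held 1, as it did for GLI1 in both lines. FLI1 itself was at 36.0, 37.9 and 39.3 CPM in CHLA9 and at 19.1, 21.8 and 25.3 CPM in TC71, the direction of VRK1 and LIPI and not that of PPP1R1A.

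**Figure D5:**
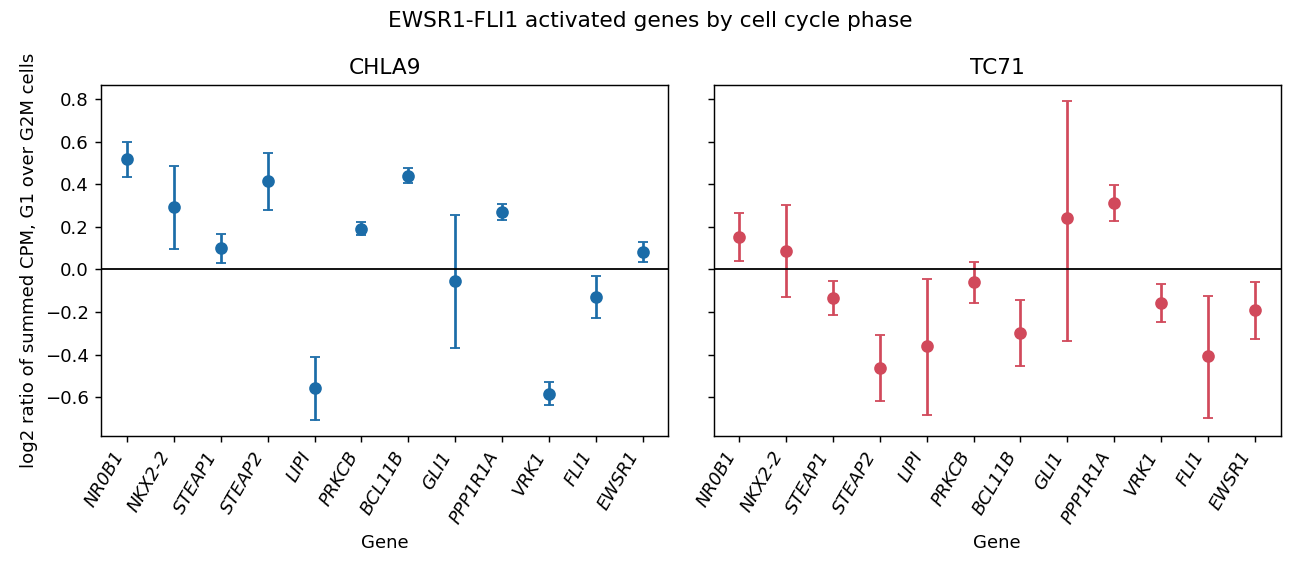
Log2 ratio of the summed CPM of G1 cells over G2M cells for each gene, with exact 95% counting intervals, in CHLA9 (left, 1015 G1 and 1766 G2M cells) and TC71 (right, 226 G1 and 669 G2M cells); 0 means no difference. STEAP2 and BCL11B stand above 0 in CHLA9 and below 0 in TC71, while LIPI, VRK1 and FLI1 stand below 0 in both.

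When the cells were split by depth into 3 equal groups, BCL11B differed most in CHLA9. It was at 280 CPM in the 1508 CHLA9 cells with the fewest UMIs and at 199 CPM in both the middle and the deepest group. VRK1 was at 132, 147 and 158 CPM and LIPI at 15.8, 17.9 and 20.3 CPM from the shallowest to the deepest group, as from G1 to G2M, the phase with the most UMIs. PRKCB was level, at 345, 345 and 346 CPM. In TC71, NR0B1 was at 114, 123 and 125 CPM and BCL11B at 84.3, 71.7 and 75.02 CPM. The share of mitochondrial UMIs hardly differed between the groups, with medians of 7.34% to 7.89% in CHLA9 and 8.95% to 9.19% in TC71.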

How the data were processed

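Per the labels and the methods, cells of each line were loaded on a droplet controller, and the authors counted UMIs per gene and barcode with Cell Ranger 3.1.0 on hg38. They deposited raw UMI counts of the filtered barcodes, with no normalization.

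The genes, lists, phase gene limit and split draws were chosen with earlier results of these data known. Levels are summed UMIs per 1000000 of the kept cells, with exact 95% Poisson intervals; genes were called between the lines from 5 CPM and 2-fold. Scrublet (scanpy 1.11.5) called 8.71% of CHLA9 and 0.694% of TC71 cells as doublets; these were kept, and an alternative left out the 8% of cells with the highest scores. Cells were thinned to 10000 UMIs with seed 1 (numpy 2.4.6); Spearman's rho (scipy 1.17.1) was taken across cells of 1 library, for genes in at least 5% of cells. Phases were scored with Seurat 5.3.0 (R 4.3.3) on genes found in at least 10 cells. Named besides the 10 genes were FLI1, EWSR1, close relatives, the 2 genes with the highest mean rho per member and up to 4 other activated genes in each direction; 1 gene near PRKCB is not reported here. GENCODE 44 gave the coordinates (GRCh38) by gene identifier, and the GRCh38 genome the sequences. Steps were tested on simulated data.

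Depth was 178489774 UMIs in CHLA9 and 75408445 in TC71. Alternatives covered the cell filters, doublets, scaling, folds, depth, random draws, the form of correlation, single phases and phase scoring.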

Additional observations from a re-analysis of the deposited data

Results flagged for a closer look

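STEAP2 and BCL11B, and to a lesser degree STEAP1, went opposite ways with the cell cycle in the 2 lines. As a log2 ratio, G1 over G2M, STEAP1 gave 0.0987 in CHLA9 but -0.135 in TC71, STEAP2 0.414 but -0.462, and BCL11B 0.441 but -0.297. STEAP1 was under 1.2-fold apart in both lines, and its CHLA9 interval held 0 once outlying cells were left out (-0.00102 to 0.141). Over all genes the median log2 ratio was -0.0242 in CHLA9 and -0.115 in TC71. In TC71 STEAP1 thus lay near the genes at large. At least 1.2-fold higher in G2M were 18.7% of all genes in CHLA9 and 31.6% in TC71. The G2M call of BCL11B in TC71 was lost with the mean of per-cell CPM (-0.223). These contrasts between lines were not tested.

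The barcodes under 5000 UMIs, which the comparisons left out, also carried the genes. Of the 10 genes, 9 had more than 3 UMIs in the 277 such barcodes of CHLA9, and 10 did in the 5869 of TC71. The medians were 2530 UMIs and 62.1% mitochondrial UMIs in these CHLA9 barcodes, and 1170 UMIs and 3.39% in those of TC71. How many of all genes passed the same bar of 3 UMIs was not counted. These counts therefore do not set the 10 genes apart from genes at large. In these TC71 barcodes STEAP1 was at 267 CPM, VRK1 at 198 CPM, NR0B1 at 107 CPM and BCL11B at 47.1 CPM, beside 239, 202, 122 and 75.9 CPM in the kept cells. In the CHLA9 barcodes NR0B1 was at 12.48 CPM (9 UMIs), PPP1R1A at 61.0 CPM and VRK1 at 49.9 CPM, beside 48.1, 252 and 149 CPM. The 870 TC71 barcodes left out for few genes or many mitochondrial UMIs had STEAP1 at 468 CPM, STEAP2 at 164 CPM and PPP1R1A at 61.8 CPM. Whether the barcodes under 5000 UMIs are small cells or free RNA was not tested.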

How the results depend on the processing

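The count of genes 2-fold apart between the lines was 5 or 6 under the 9 alternatives, 6 only at 1.5-fold, where PRKCB was added, and 6 of the 10 genes were higher in TC71 under each. Median rho over the pairs ran from 5.27e-05 to 0.0232 in CHLA9 and from -0.00242 to 0.0511 in TC71 under 16 alternatives each. The genes found in at least 5% of cells numbered 8 to 10 in CHLA9 and 9 or 10 in TC71. The genes 1.2-fold apart between G1 and G2M numbered 7 in CHLA9 throughout, and 3 to 5 in TC71. Single shares of cells moved beyond their intervals in 76 of 220 cases and single rho values in 30 of 144. The 76 include every share at 5000 UMIs, at 20000 UMIs and unthinned, where the change of depth itself moves the share. In TC71, 2 of the pairs named for a rho of at least 0.05 changed sign with the random draw, NKX2-2 with PPP1R1A (-0.0306) and BCL11B with VRK1 (-0.0153). Depth limits GLI1 most, and the counts of FLI1. No paired analysis was possible because both lines had a single library without replicate numbers.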
